A study of Mus musculus with 7 samples.

Results

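The subject is H3K27-Ac, the acetylation of histone H3 at lysine 27 that marks active promoters and enhancers, at 10 genes of the Myc-Max network: Myc, Mycn, Mycl, Pvt1, Max, Mxd1, Mxi1, Mnt, Mlx and Mga. The 10 were chosen by name out of 55413 genes that GENCODE M21 places on chromosomes 1 to 19, X and Y; 9 encode proteins and Pvt1 is a long intergenic non-coding RNA. The samples were 3 tumour cell clones, each a line grown from an independent skin tumour of a Cdkn2ab-/- mouse on an FVB/129P2 backcross background. In all of them the Cdkn2ab locus, which encodes the cell cycle inhibitors p15Ink4b and p16Ink4a and the p53 regulator p19Arf, was inactive. The clones had been picked for growth in soft agar and were then kept as adherent cultures, so each stands for 1 selected line and not for a whole tumour. H3K27-Ac was measured by ChIP-seq in 4 libraries (1 of clone 1, 1 of clone 2 and 2 of clone 3), beside 3 IgG control libraries (1 of clone 1 and 2 of clone 3), and was deposited as 1 peak list per clone. There was 1 condition and 1 list per clone, so no test was run and values are given per clone or as mean ± SD over the clones. The spread between clones joins differences of the tumours with differences of the libraries, which cannot be told apart here.

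Myc, Mycn and Mycl are transcription factors that bind DNA as dimers with Max, preferentially at the E-box CACGTG, and promote growth, ribosome production and entry into the cell cycle. Max also pairs with the Mxd proteins (Mxd1 and Mxi1 among them), Mnt and Mga, which recruit repressors to the same sites, while Mlx is the partner of the glucose-sensing factors Mlxip and Mlxipl and of some Mxd proteins. Pvt1 starts just downstream of Myc, and its long gene body and the gene deserts on both sides are known to hold tissue-specific enhancers of Myc. In skin, Myc is a target of canonical WNT signalling and acts in the keratinocyte progenitors that leave the stem cell compartment.

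The lists held 29182, 49587 and 29277 peaks in clones 1, 2 and 3. For each peak the list gives the fold enrichment at its summit, from which the H3K27-Ac reads there were recovered as whole numbers for at least 99.99% of the peaks. The median peak had 37, 34 and 53 reads at its summit and the weakest 13, 12 and 25, so a gene without a listed peak may still carry acetylation below these levels. Because the median fold enrichment of clone 3 was lower, at 5.38 against 7.70 in clone 1 and 7.14 in clone 2, peaks are also given by percentile, the percentage of the same clone's peaks that lie lower. The labels name no IgG library for clone 2. At summits that lay within 10 bp of each other, the control value per fragment length was equal within 0.1% at 665 of 1190 summits (55.9%) for clones 1 and 2, against 9 of 702 (1.28%) for clones 1 and 3 and 7 of 587 (1.19%) for clones 2 and 3, so the fold enrichments of clones 1 and 2 rest in part on the same control reads. Of the markers of basal keratinocytes, Krt5, Trp63, Cdh1 and Epcam had no promoter peak in any clone and Krt14 had 1 in clone 1 alone, with 42 reads. The hair germ genes Sox9 and Cdh3 had promoter peaks in all 3 clones and Lef1 in none. The mesenchymal markers Vim and Twist1 had them in all 3 clones and Pdgfra and Col1a1 in clones 1 and 2, whereas Ptprc (immune), Pecam1 (endothelial) and Sox10 (melanocyte) had none and Mitf had them in each. Of the markers of the epithelial tissue of origin, those of basal keratinocytes were thus mostly without a listed promoter peak. Of the hair germ genes, Sox9 and Cdh3 had one in each clone and Lef1 had none. Among promoter peaks of protein-coding genes, Sox9 lay at the 66.2nd, 58.0th and 20.3rd percentile in clones 1, 2 and 3 and Cdh3 at the 31.8th, 44.9th and 20.4th. The mesenchymal Vim lay at the 94.2nd, 81.6th and 91.1st and Twist1 at the 66.9th, 77.2nd and 74.2nd, while Pdgfra and Col1a1 had no promoter peak in clone 3.

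A promoter peak, a peak within 1 kb of an annotated transcription start, was present at 8 of the 10 genes in clone 1, at all 10 in clone 2 and at 9 in clone 3. Myc, Pvt1, Max, Mxd1, Mxi1, Mnt, Mlx and Mga had one in every clone, Mycn in clones 2 and 3, and Mycl in clone 2 only. Of the 9 protein-coding genes 7, 9 and 8 had a promoter peak, where 49.8%, 56.9% and 48.1% of all 21938 protein-coding genes did in clones 1, 2 and 3. All 3 lists held a promoter peak at 7 of the 9, against 46.5% of protein-coding genes. For Pvt1 the background is that of 5854 lincRNA genes, of which 11.3%, 14.2% and 10.9% had a promoter peak in clones 1, 2 and 3 and 9.04% in all of them. Over the members with a promoter peak the median fold enrichment was 23.4, 39.4 and 8.04, beside 14.8, 24.0 and 7.13 over all promoter peaks of protein-coding genes. The member values take the strongest promoter peak of each gene. The values beside them take every promoter peak, weaker further peaks of a gene included, so the comparison favours the members. Peaks in the gene body, away from every start of the gene, numbered 36, 49 and 24 over the 10 genes, and Pvt1 alone held 30, 38 and 17 of them.

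**Figure D1:**
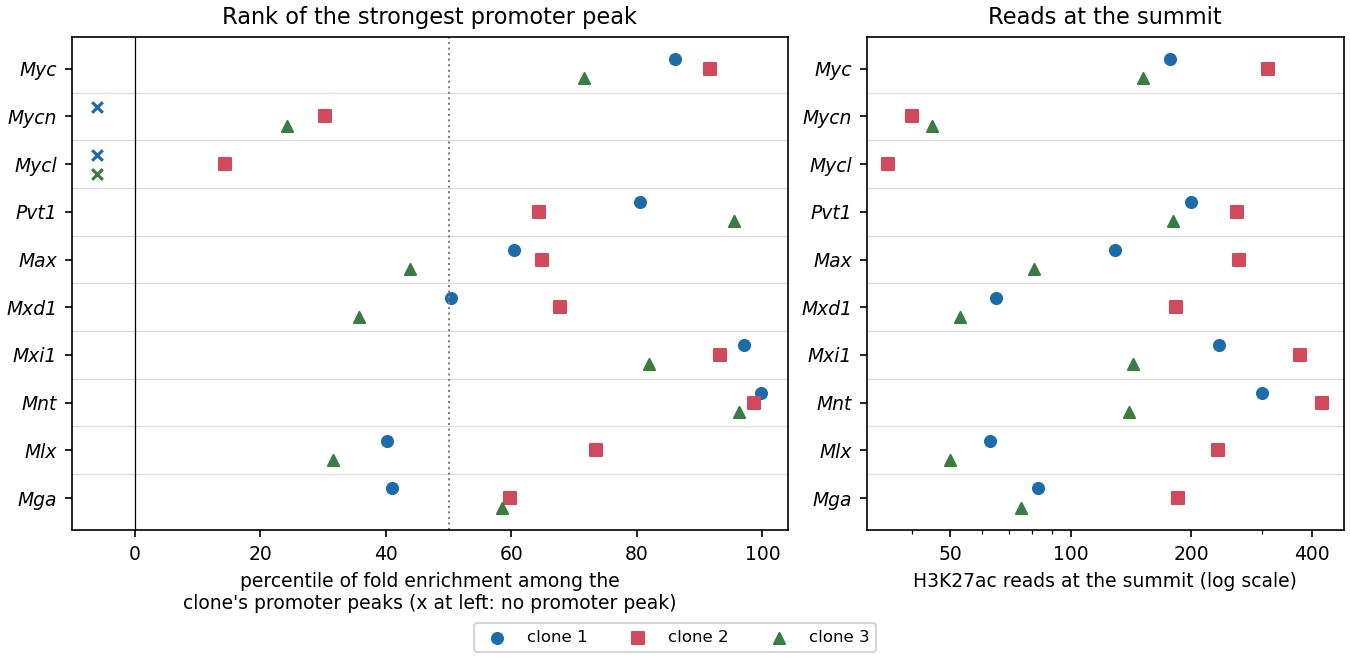
Strongest promoter peak of each gene in the 3 clones. The left panel shows the percentile of its fold enrichment among the promoter peaks of protein-coding genes of the same clone (crosses at the left edge mark clones without a promoter peak, the dotted line the 50th percentile), and the right panel the H3K27-Ac reads at its summit on a log scale. Mnt lies above the 96th percentile in every clone, and the peaks of Mycn and Mycl have 35 to 45 reads.

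Myc (ENSMUSG00000022346.15, chr15:61985391-61990374 in GRCm38, plus strand) carried a single wide promoter peak that covered all 6 of its annotated starts in each clone. Its fold enrichment was 32.3 in clone 1, 70.6 in clone 2 and 9.77 in clone 3, with 177, 311 and 152 reads. These values lay at the 86.1st, 91.7th and 71.6th percentile of promoter peaks, a mean of 83.1 ± 10.4 (SD, n = 3). The peak stood out by its width more than by its height. It was 6.07 kb, 4.50 kb and 4.74 kb wide, which placed it at the 99.8th, 99.2nd and 99.7th percentile of promoter peaks, and peaks covered 86.9%, 73.4% and 81.5% of the gene. Such a width was not particular to Myc. By width the promoter peak of Mxi1 lay at the 99.4th, 99.7th and 97.7th percentile and that of Mnt at the 99.1st, 98.6th and 98.8th. The summit of the Myc peak lay 103 bp downstream of the start nearest to it in clone 1, 380 bp upstream in clone 2 and 182 bp downstream in clone 3. The nearest start was not the same in every clone, and the summits spread over 1093 bp. A separate peak in the gene body was listed in clone 2, with 71 reads, and in clone 3, with 69 reads. In clone 1 the wide promoter peak (chr15:61983657-61989721) itself covered the positions of both these summits. The promoter peak also lies within 1 kb of the start of Gm37947, an unclassified minus-strand gene model just upstream, and a peak cannot be divided between the 2 genes.

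Pvt1 (ENSMUSG00000097039.8, chr15:62037986-62378096, plus strand) starts 52.6 kb downstream of the start of Myc and spans 340111 bp. The peak at its outermost start had a fold enrichment of 28.3, 37.6 and 16.7 in clones 1, 2 and 3, with 200, 261 and 180 reads. By percentile among promoter peaks it stood at 80.6, 64.5 and 95.5, so that in clone 3 it ranked above the Myc promoter and in clones 1 and 2 below it. The short RNA gene Gm27913 overlaps the same start and cannot be told apart from Pvt1 by a peak. With its internal starts counted, Pvt1 had 3, 7 and 1 promoter peaks. Its strongest body peak, in an intron far into the gene, reached a fold enrichment of 30.01 in clone 1 and 23.8 in clone 3, where it was at the 99.9th percentile of all peaks. In clone 2 the strongest body peak was another one, close to the promoter, with a fold enrichment of 24.8.

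Mycn and Mycl, the paralogues of Myc with a more restricted expression, had weak peaks or none. Mycn (ENSMUSG00000037169.15, chr12:12936093-12941914, minus strand) had 2 promoter peaks in clone 2, the stronger with 40 reads and a fold enrichment of 9.06. In clone 3 it had 1, with 45 reads and a fold enrichment of 4.96. These values lay in the lower part of the promoter peaks, at the 30.3rd and 24.3rd percentile. The peak of clone 3 lay 161 bp away from the nearest start without covering it. In clone 1 no peak was listed within 306675 bp of a Mycn start. Mycl (ENSMUSG00000028654.13, chr4:122995652-123002485, plus strand) had 1 promoter peak in clone 2 with 35 reads and a fold enrichment of 5.33, at the 14.5th percentile. The nearest peaks of clones 1 and 3 were 17234 bp and 17230 bp from its starts. Neither gene had a body peak in any clone. The sequences of the 2 promoters are shown because these are the members whose promoter peak was listed in some clones only. They are the 300 bases from 250 before to 50 after the start in RefSeq's GRCm38.p6 annotation, 5′ to 3′ on the gene's strand, at chr12:12941787-12942086 for Mycn and chr4:122995681-122995980 for Mycl, and are all in lower case because no match was found on either strand to the 3 motifs searched. These were the E-box CACGTG, the core CTTTGAT of the sites of TCF and LEF factors, and the AP-1 site TGANTCA.
Mycn: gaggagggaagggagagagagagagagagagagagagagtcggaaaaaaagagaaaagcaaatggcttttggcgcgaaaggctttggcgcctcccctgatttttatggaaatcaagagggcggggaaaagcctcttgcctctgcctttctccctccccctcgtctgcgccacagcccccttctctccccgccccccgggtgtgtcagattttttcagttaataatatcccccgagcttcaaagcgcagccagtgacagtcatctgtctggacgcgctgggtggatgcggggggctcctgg
Mycl: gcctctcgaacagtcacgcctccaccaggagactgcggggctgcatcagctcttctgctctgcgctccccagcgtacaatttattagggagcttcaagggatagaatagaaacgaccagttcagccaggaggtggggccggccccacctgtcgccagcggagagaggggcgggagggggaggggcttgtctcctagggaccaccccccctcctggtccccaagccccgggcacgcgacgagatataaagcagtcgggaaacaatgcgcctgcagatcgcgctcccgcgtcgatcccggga

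Max, the obligate partner of the Myc proteins, and Mlx, the partner of Mlxip and Mlxipl, had narrower promoter peaks of intermediate rank. Max (ENSMUSG00000059436.13, chr12:76937269-76962201, minus strand) had fold enrichments of 18.5, 38.0 and 6.49 with 129, 264 and 81 reads in clones 1, 2 and 3. Mlx (ENSMUSG00000017801.15, chr11:101087277-101092207, plus strand) had fold enrichments of 11.8, 46.3 and 5.47 with 63, 234 and 50 reads. Mlx was the member whose percentile differed most between clones, with 40.2, 73.6 and 31.7, and its peak in clone 3 began 5 bp from a start and covered none. Among the repressive partners, Mnt (ENSMUSG00000000282.12, chr11:74830920-74845725, plus strand) had the highest mean percentile of all 10 members. Its fold enrichment was 66.6, 91.5 and 17.3 with 300, 425 and 140 reads, at the 99.8th, 98.7th and 96.2nd percentile of promoter peaks. Mnt peaks covered 41.7%, 70.1% and 26.3% of the gene, with 1, 6 and 0 body peaks beside the promoter.

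Max, Mlx and Mnt are also the members whose RefSeq promoter window holds the E-box CACGTG, once each, and their sequences are printed for that reason, with the E-box in capitals. The windows are chr12:76962199-76962498 for Max, chr11:101087040-101087339 for Mlx and chr11:74830674-74830973 for Mnt, each 300 bases on the gene's strand. The RefSeq table holds 10 windows for 8 of the members, of which Mxi1 has 3, and no entry for Myc or Pvt1. CACGTG was found in 3 of these 10 windows (30%) and in 2349 of all 32851 (7.15%). CTTTGAT and TGANTCA were found in none of the 10, where 3.73% and 7.81% of all windows hold them. A match describes letters and is no measurement of binding.
Max: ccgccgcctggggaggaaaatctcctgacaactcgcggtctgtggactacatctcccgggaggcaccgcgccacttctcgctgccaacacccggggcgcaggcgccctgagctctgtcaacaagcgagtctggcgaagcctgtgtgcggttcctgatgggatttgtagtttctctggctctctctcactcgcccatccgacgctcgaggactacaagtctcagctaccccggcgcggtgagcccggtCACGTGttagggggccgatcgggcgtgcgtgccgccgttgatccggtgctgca
Mlx: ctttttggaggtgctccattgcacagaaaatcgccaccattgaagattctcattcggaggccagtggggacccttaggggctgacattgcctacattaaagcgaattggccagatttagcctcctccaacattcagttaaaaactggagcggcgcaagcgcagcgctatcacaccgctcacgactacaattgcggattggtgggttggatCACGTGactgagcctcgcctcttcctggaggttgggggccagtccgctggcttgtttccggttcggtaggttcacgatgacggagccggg
Mnt: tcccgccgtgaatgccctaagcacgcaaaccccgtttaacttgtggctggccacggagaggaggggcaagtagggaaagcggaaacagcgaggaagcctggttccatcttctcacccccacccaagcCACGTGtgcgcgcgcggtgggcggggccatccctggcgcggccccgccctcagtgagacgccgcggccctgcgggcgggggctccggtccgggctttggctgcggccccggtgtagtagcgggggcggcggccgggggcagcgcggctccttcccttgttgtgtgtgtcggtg

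Mxi1 (ENSMUSG00000025025.14, chr19:53310518-53375810, plus strand), a Mxd-type antagonist of Myc, was the other member with a promoter peak of a high rank. Its fold enrichment was 47.3, 73.7 and 11.7 with 235, 374 and 143 reads, at the 97.0th, 93.3rd and 81.9th percentile, and its body held 4, 3 and 4 further peaks. Mxd1 (ENSMUSG00000001156.9, chr6:86647042-86669161, minus strand), which replaces Myc on Max as cells differentiate, had fold enrichments of 15.02, 40.7 and 5.78 with 65, 183 and 53 reads and no body peak. Mga (ENSMUSG00000033943.15, chr2:119897228-119969581, plus strand), a large Max partner that belongs to a Polycomb complex, had fold enrichments of 12.1, 33.1 and 8.04 with 83, 185 and 75 reads.

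Ordered by mean percentile among promoter peaks, the members ran from Mnt (98.3 ± 1.86) over Mxi1 (90.7 ± 7.85), Myc (83.1 ± 10.4), Pvt1 (80.2 ± 15.5), Max (56.4 ± 11.1), Mga (53.1 ± 10.5) and Mxd1 (51.3 ± 16.1) to Mlx (48.5 ± 22.1; SD, n = 3 for each). Mnt stood above Mxi1 and Mxi1 above Myc in each of the 3 clones, although their ranges over the clones overlapped. From Myc down to Mlx every pair of neighbours changed places in at least 1 clone, so their order is not resolved. Mycn (27.3 ± 4.23, SD, n = 2) and Mycl (14.5, in 1 clone) lay below every other member in the clones where they had a peak. In number of reads, which also follows the unknown depth of the libraries, clone 2 was the highest of the 3 clones at each of the 8 genes with a peak in every clone, as shown in the plot of the promoter peaks.

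Around the members, promoter peaks were present at nearly all listed genes of the pathway. Of 54 further genes, 52 (96.3%) carried one in every clone, against 46.5% of protein-coding genes, and many of the listed genes are known to be widely expressed. All 16 Myc cofactors had one, among them Zbtb17, the factor through which Myc represses genes, with fold enrichments of 45.8, 93.7 and 15.5, and Trrap, the scaffold of histone acetyltransferase complexes, with 31.4, 81.8 and 9.27. The 10 genes of Myc protein turnover all had one as well, among them Ppp2ca, the phosphatase subunit that acts on Myc, with fold enrichments of 69.3, 101 and 30.4, and Fbxw7, the receptor of its ubiquitin ligase, with 32.1, 56.4 and 15.6. So were the 13 Myc target genes, such as the nucleolar gene Ncl (43.7, 87.6 and 12.1) and the translation factor gene Eif4e (48.2, 82.9 and 17.2). Of the 7 other network genes, Mlxipl, the glucose sensor of liver and fat, had no promoter peak in any clone, and of 8 WNT factors upstream of Myc only Lef1 had none, while Tcf7 had peaks of 40, 122 and 60 reads. The median percentile of the listed genes' peaks in clones 1, 2 and 3 was 85.6, 71.9 and 66.7 for the other network genes, 81.4, 90.3 and 77.9 for the cofactors, 82.3, 83.9 and 74.7 for turnover, 85.7, 86.2 and 78.9 for the targets and 54.4, 65.6 and 51.4 for the WNT factors. For the members with a promoter peak, 8, 10 and 9 in clones 1, 2 and 3, it was 70.5, 66.4 and 58.5.

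From 1 Mb before Myc to 2 Mb after it (chr15:60985391-63990374), clone 1 had 63 listed peaks, clone 2 had 57 and clone 3 had 60. The numbers of listed peaks were close, but with the lists held to equal length clone 2 had 34 against 63 in clone 1 and 60 in clone 3. In clones 1 and 3 the window was richer in peaks than Chr15 or the genome, with 20.97 and 19.97 peaks per Mb against 14.8 and 15.3 on Chr15 and 10.7 and 10.7 over all chromosomes. In clone 2 it had 18.97 per Mb against 28.6 on Chr15 and 18.2 over all chromosomes. Peaks covered 1.96%, 1.24% and 2.17% of the window in clones 1, 2 and 3, compared with 1.49%, 2.32% and 1.48% of Chr15 and 0.986%, 1.46% and 0.964% of the genome, so that clone 2 was lowest in the window and highest outside it.

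**Figure D2:**
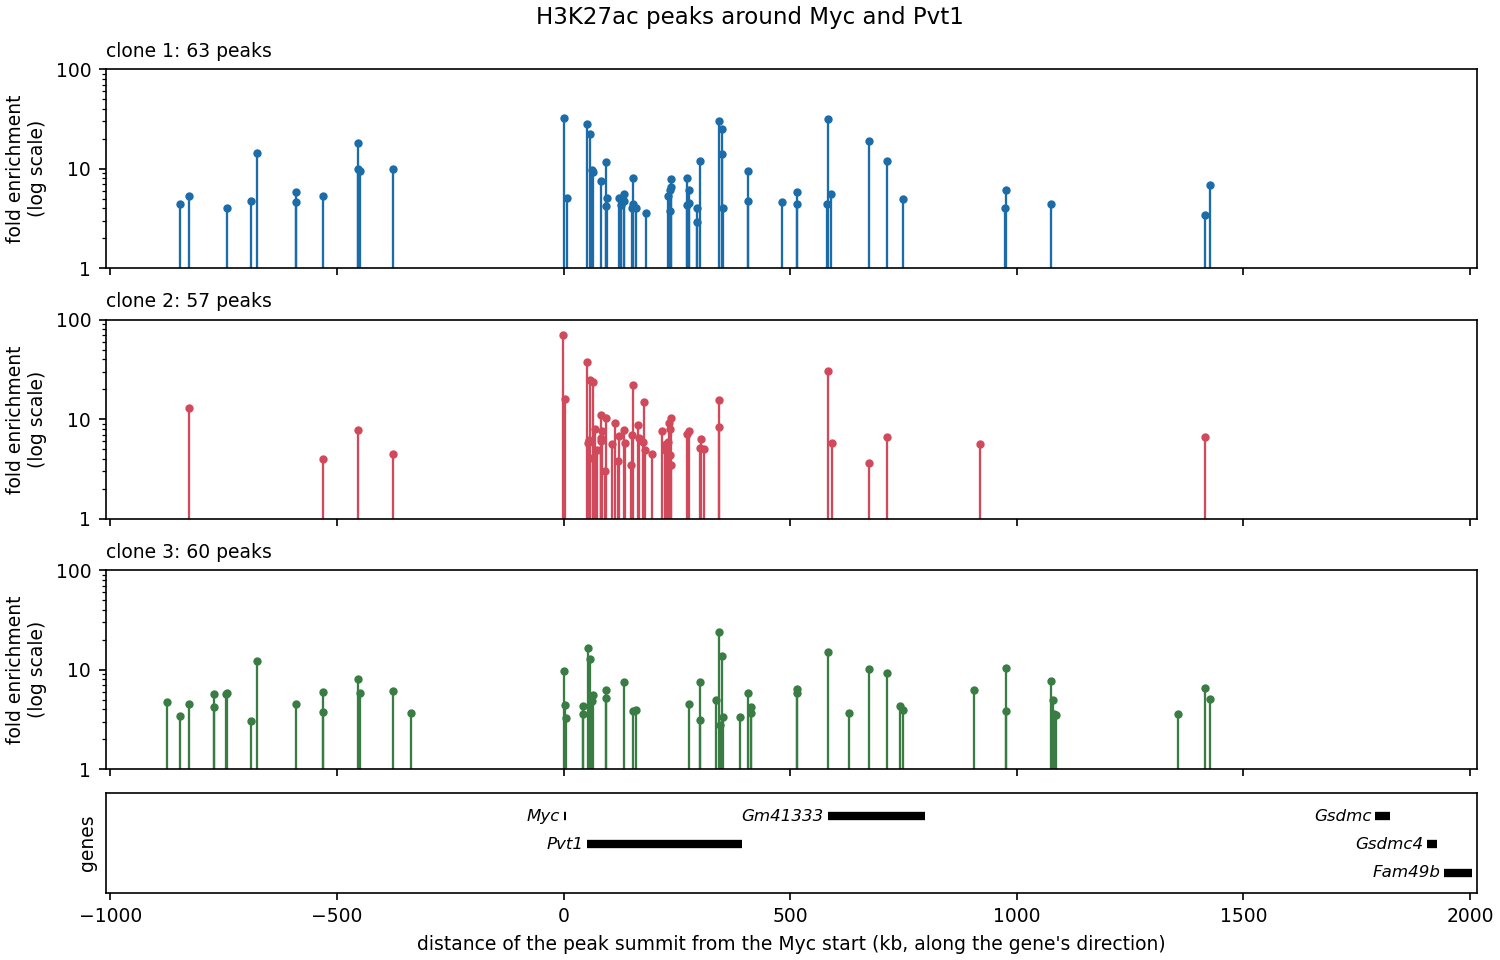
Every H3K27-Ac peak from 1 Mb before to 2 Mb after Myc in clones 1, 2 and 3, as fold enrichment at the summit (log scale) against distance from the start of Myc in kb, with selected genes below. Clone 2 has 45 of its 57 peaks in Pvt1 and few on either side. Clones 1 and 3 have more peaks in both gene deserts, the last of them at 1426 kb.

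Within the window the 3 clones divided their peaks differently between Pvt1 and the flanking deserts. Upstream of Myc there were 12, 4 and 16 peaks in clones 1, 2 and 3, in the body of Pvt1 33, 45 and 18, and downstream of Pvt1 16, 6 and 21. The share of the window's peaks that touched Pvt1 was thus 52.4%, 78.9% and 30%. By bases the body of Pvt1 was covered alike, at 7.77%, 7.79% and 6.11%. The megabase upstream of Myc was covered at 1.30%, 0.316% and 1.81%, and the part downstream of Pvt1 at 0.876%, 0.214% and 1.29%, both lowest in clone 2. The whole list of clone 2 was longer than the others.

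**Figure D3:**
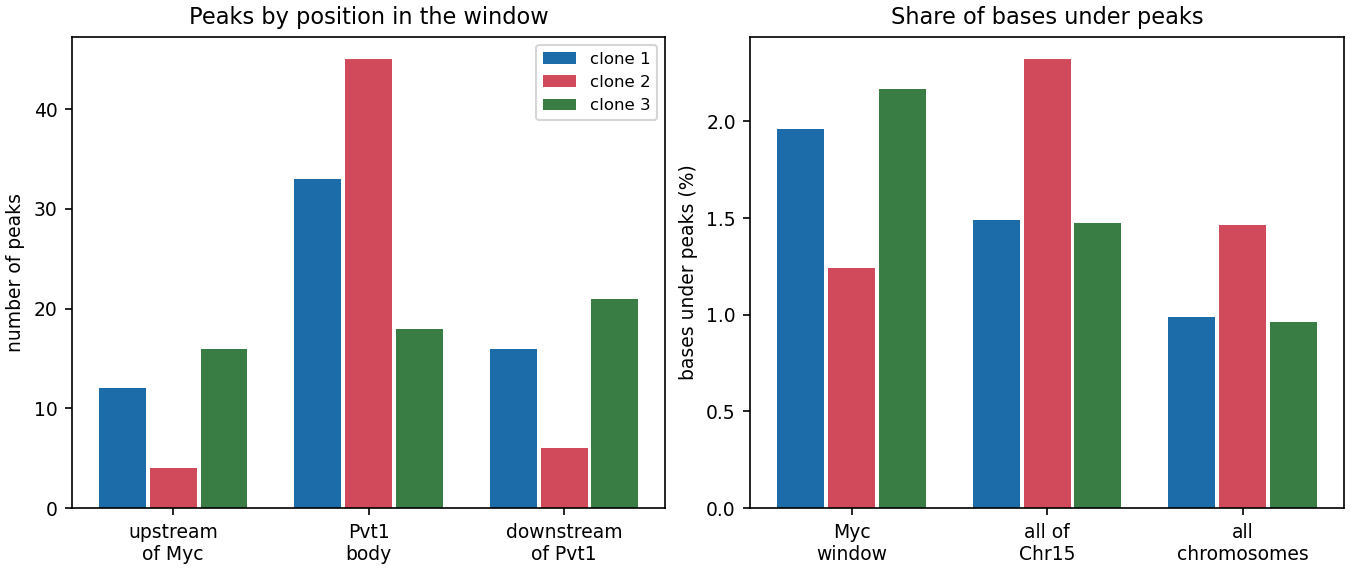
Left, number of peaks upstream of Myc, in the Pvt1 body and downstream of Pvt1 for each clone. Right, percentage of bases under peaks in the window, on all of Chr15 and over all chromosomes; clone 2 is the lowest of the clones in the window (1.24%) and the highest on Chr15 (2.32%).

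Overlapping peaks of the 3 lists merged into 105 regions in the window. Of these, 18 were found in all 3 clones, 25 in a pair of clones and 62 in a single clone. The 18 became 10 when the summits had to lie within 250 bp and 8 with a reciprocal overlap of 50%. The 25 were made up of 9 regions of clones 1 and 2 and 16 of clones 1 and 3, and none was shared by clones 2 and 3 alone. The regions common to all clones were 17.1% of the regions in the window, 24.0% of those on the rest of Chr15 and 27.3% of those over the genome. Of the 34 regions that both clones 1 and 3 had, clone 2 had 18 (52.9%), where it had 86.4% of such regions on the rest of Chr15 and 87.8% over the genome. The difference was larger outside Myc and Pvt1, where clone 2 had 8 of 21 (38.1%). Inside the body of Pvt1 clone 2 had 9 of 12 (75.0%), which is also below the shares on the rest of Chr15 and over the genome but rests on few regions. In the body of Pvt1 clone 3 in turn had 9 of the 17 regions that both clones 1 and 2 had (52.9%), where it had 81.5% of such regions on the rest of Chr15 and 81.1% over the genome. Leaving out regions within 1 kb of a start of any gene, clone 2 had 6 of 19 (31.6%) outside Myc and Pvt1, compared with 73.7% on the rest of Chr15 and 73.0% over the genome. Inside the body of Pvt1 it then had 7 of 10 (70%), close to those shares. With the same regions left out, clone 3 had 7 of the 11 regions of clones 1 and 2 in Pvt1 (63.6%). Its shares were 71.3% on the rest of Chr15 and 68.4% over the genome, so there too the difference was small. These shares were compared after the pattern had been seen and are descriptive. That part of the control reads of clone 2 are those of clone 1 was not tested for its share in them.

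The region shared by all clones with the highest mean percentile among all peaks was the promoter of Pvt1 (92.1 ± 5.23, SD, n = 3), followed by that of Myc (91.8 ± 6.58). The next was a region at the start of the lincRNA Gm41333, 584 kb downstream of the start of Myc (chr15:62567878-62571244), with fold enrichments of 31.8, 30.3 and 14.9 and 174, 171 and 209 reads. Its peak lay within 1 kb of the start of Gm41333 in clones 1 and 3 and farther away in clone 2, although the summits of the 3 clones were within 138 bp. An intron of Pvt1 343 kb from the start of Myc (chr15:62327039-62330915) held a region with fold enrichments of 30.01, 15.6 and 23.8 and 196, 107 and 267 reads. It was at the 92.3rd, 73.9th and 99.9th percentile of all peaks, the highest percentile that any window region reached in a clone. Closer to the promoter, an intronic region 58 kb from the start of Myc (chr15:62042815-62045243) had fold enrichments of 22.4, 24.8 and 12.9.

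Upstream of Myc, the strongest shared region was an intergenic one, at -453 kb from its start (chr15:61531009-61534334), with fold enrichments of 18.1, 7.81 and 8.10, 103, 44 and 207 reads, and summits within 80 bp of each other. The remaining regions among the 10 with the highest mean percentile were an intron of Gm41333 at 713 kb (11.9, 6.60 and 9.34-fold in clones 1, 2 and 3), and 3 regions in Pvt1 at 94 kb (11.7, 10.3 and 6.34-fold), 64 kb (9.37, 23.9 and 5.53-fold) and 302 kb (11.9, 6.41 and 7.50-fold). A further intron of Gm41333, at 674 kb, was strong in clones 1 and 3 and barely listed in clone 2, at the 81.6th, 85.9th and 2.43rd percentile. The other way round, a region in Pvt1 at 154 kb was at the 79.6th percentile in clone 2 and at the 51.8th and 16.0th in clones 1 and 3. Over the 18 shared regions, where clones 1 and 2 have control reads in common, Spearman's rho of the fold enrichments was 0.83 between clones 1 and 3, 0.48 between clones 1 and 2 and 0.29 between clones 2 and 3.

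**Figure D4:**
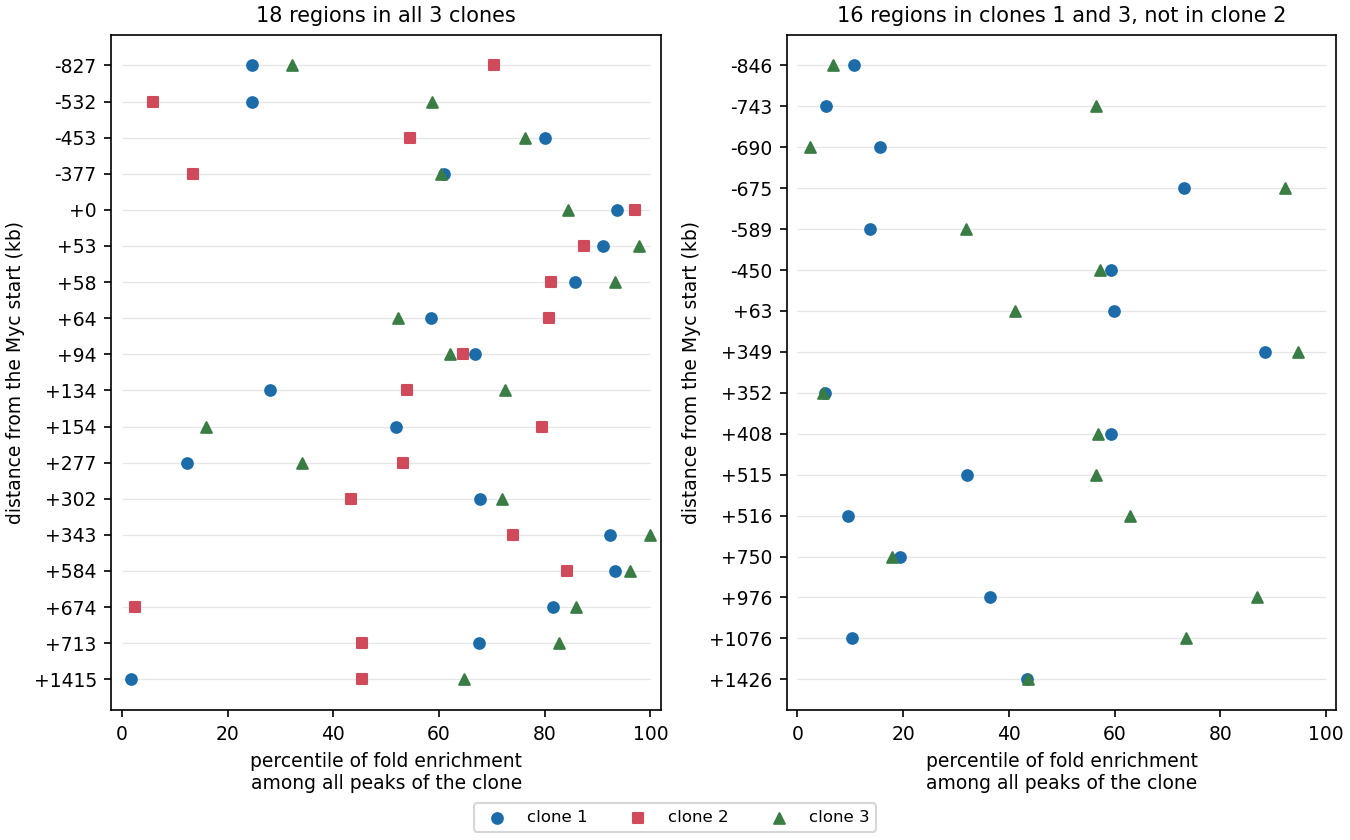
Percentile of fold enrichment among all peaks of the clone for the 18 window regions found in all 3 clones (left) and the 16 found in clones 1 and 3 but not in clone 2 (right), ordered by distance from the start of Myc in kb. On the right, the region at +349 kb lies at the 88.4th percentile in clone 1 and the 94.7th in clone 3.

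Of the 16 regions of clones 1 and 3 without a peak in clone 2, 6 lay upstream of Myc, 3 in Pvt1 and 7 downstream of it. The strongest was in an intron of Pvt1 at 349 kb (chr15:62333018-62335607), just downstream of the strong region at 343 kb that clone 2 shared. Its fold enrichment was 25.1 with 137 reads in clone 1 and 13.8 with 159 reads in clone 3. The next was in an intron of the non-coding gene Gm29904, at -675 kb (chr15:61308118-61310722), with fold enrichments of 14.3 and 12.4 and 65 and 140 reads. An intergenic region at 976 kb (chr15:62959918-62961864) was at the 87.0th percentile in clone 3 and the 36.5th in clone 1. The others had 16 to 87 reads in clone 1 and 40 to 113 in clone 3.

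The regions of a single clone were weaker. Clone 2 had 25 of them, of which 24 lay between the start of Myc and the end of Pvt1 and none upstream of Myc. The strongest was in an intron of Pvt1 at 177 kb (chr15:62162122-62162659), with a fold enrichment of 14.9 and 77 reads, at the 73.1st percentile. Clone 1 had 14, the strongest of them in Pvt1 at 237 kb with 35 reads and a fold enrichment of 7.91. Clone 3 had 23, with 6 upstream of Myc and 10 downstream of Pvt1, the strongest at 905 kb with 79 reads and a fold enrichment of 6.34.

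To show what the strong regions away from starts are made of, 300 bases around the summit of 4 of them are given on the plus strand of GRCm38, with matches to the E-box and to the TCF and AP-1 motifs, searched on both strands, in capitals. They are the Pvt1 intron at 343 kb (chr15:62328887-62329186) and the intergenic region before Myc (chr15:61532440-61532739), shared by all clones, the Pvt1 intron at 349 kb of clones 1 and 3 (chr15:62333903-62334202), all 3 around the summit of clone 1, and the Pvt1 intron at 177 kb of clone 2 (chr15:62162195-62162494).
Pvt1 intron at 343 kb: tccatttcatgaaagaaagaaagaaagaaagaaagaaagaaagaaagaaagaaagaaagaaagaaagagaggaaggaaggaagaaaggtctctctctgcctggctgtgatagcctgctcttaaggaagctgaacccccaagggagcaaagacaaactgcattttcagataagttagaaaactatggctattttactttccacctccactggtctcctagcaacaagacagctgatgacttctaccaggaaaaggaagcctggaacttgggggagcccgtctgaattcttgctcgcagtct
Intergenic before Myc: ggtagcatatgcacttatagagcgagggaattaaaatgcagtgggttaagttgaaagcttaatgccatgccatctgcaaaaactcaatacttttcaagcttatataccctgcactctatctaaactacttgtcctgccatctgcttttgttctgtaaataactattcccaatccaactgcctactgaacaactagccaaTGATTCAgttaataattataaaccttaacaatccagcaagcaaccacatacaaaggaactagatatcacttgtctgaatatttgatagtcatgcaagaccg
Pvt1 intron at 349 kb: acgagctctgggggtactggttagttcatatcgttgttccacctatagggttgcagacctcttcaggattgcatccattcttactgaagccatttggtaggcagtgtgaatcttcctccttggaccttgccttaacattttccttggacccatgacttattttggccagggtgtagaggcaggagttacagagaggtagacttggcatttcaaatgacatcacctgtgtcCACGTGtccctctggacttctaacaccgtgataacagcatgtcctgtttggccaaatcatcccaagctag
Pvt1 intron at 177 kb: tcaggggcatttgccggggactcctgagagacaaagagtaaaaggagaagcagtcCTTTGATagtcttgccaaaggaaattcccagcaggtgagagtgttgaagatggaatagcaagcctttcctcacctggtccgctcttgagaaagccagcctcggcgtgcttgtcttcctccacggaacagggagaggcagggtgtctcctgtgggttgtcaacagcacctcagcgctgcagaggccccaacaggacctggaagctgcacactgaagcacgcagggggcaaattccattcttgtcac
Within the printed bases, the intergenic region holds 1 AP-1 type match and the Pvt1 intron at 349 kb 1 E-box. The Pvt1 intron at 177 kb holds 1 TCF type match, whereas that at 343 kb holds none of the 3 motifs. The summits of the clones spread over 614 bp at 343 kb and 844 bp at 349 kb, so the printed bases do not cover all of them. The shared Pvt1 intron at 58 kb, whose mean percentile lies between those of the regions at 343 kb and before Myc, is not printed. Its 300 bases hold none of the 3 motifs either. Over all window peaks away from starts, TGANTCA was within the 300 bases in 8 of 51 in clone 1 (15.7%), 6 of 45 in clone 2 (13.3%) and 12 of 54 in clone 3 (22.2%), beside 9.46%, 11.3% and 11.3% of all such peaks of these clones. CTTTGAT was in 3, 3 and 5 of them, or 5.88%, 6.67% and 9.26% against 4.27%, 2.94% and 4.74%, and CACGTG in 1, 1 and 0, against 4.44%, 6.08% and 4.25%. The peaks of the clones overlap, so these are not independent counts.

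Joining peaks no more than 12500 bp apart gave 29, 18 and 33 domains in the window for clones 1, 2 and 3. The starts of Myc and Pvt1 fell in separate domains in each clone. The domain at Myc had 6.58 kb, 5.07 kb and 6.22 kb under peaks, which ranked it 481 of 14560, 1495 of 18280 and 312 of 16371 domains by bases under peaks. The domain at the start of Pvt1 ranked 445, 641 and 262 in the same lists. When bases were weighted by fold enrichment, the domain at Myc ranked 190, 408 and 457 and that at the start of Pvt1 418, 1385 and 136, so that the order of the pair was turned in clones 1 and 2 and Myc was then the highest ranked of the window in both. In clone 2 the domain at the start of Pvt1 was 42.5 kb long with 14 peaks. In clones 1 and 3 it was 12.49 kb and 22.02 kb long with 4 and 6 peaks. By bases it was the largest of the window in clones 1 and 2. The largest in clone 3 was the domain around the Pvt1 introns at 343 and 349 kb (chr15:62321605-62337518), with 6.98 kb under 5 peaks, which ranked 214 of 16371 by bases and 52 when bases were weighted by fold enrichment. The corresponding domain ranked 554 in clone 1, with 6.21 kb under 4 peaks, and 5811 in clone 2, with 1.79 kb under 2 peaks. When bases were weighted by fold enrichment, it ranked 338 in clone 1 and 8517 in clone 2. In clone 2 the next largest domain was instead a cluster of 9 peaks in Pvt1 (chr15:62202666-62223861) that ranked 1383. Weighted by fold enrichment, that cluster ranked 7070 of 18280.

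**Figure D5:**
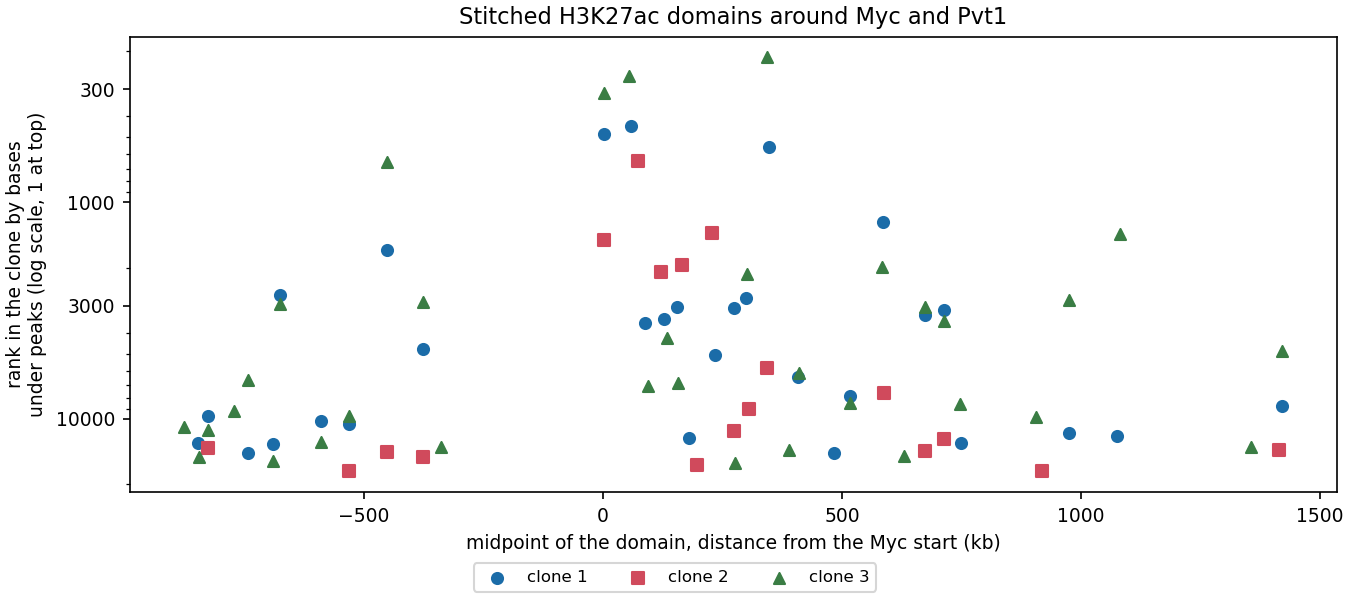
Stitched domains of the window by rank within each clone, by bases under peaks (log scale, rank 1 at the top), against the distance of their midpoint from the start of Myc in kb. The domains at Myc and at the start of Pvt1 rank between 262 and 1495 in all 3 clones, and near 345 kb those of clones 1 and 3 rank 554 and 214 while that of clone 2 ranks 5811.

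GENCODE places 6 protein-coding genes in the window. Besides Myc, only Fam49b, a regulator of actin dynamics whose start lies just past the downstream edge, had a promoter peak, in all 3 clones, with fold enrichments of 28.4, 56.7 and 16.0. Gsdmc, Gsdmc2, Gsdmc3 and Gsdmc4, genes of pore-forming gasdermins, had none in any clone. Of 13 lincRNA genes 3 had a promoter peak in any clone: Pvt1 and Gm38563 in all 3, and Gm41333 in clones 1 and 3. At Gm38563, at -827 kb from the start of Myc, clone 2 had the highest value, with 119 reads against 48 and 70.

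The control background under the window's peaks was that of its chromosome. Its median was 1.35, 1.33 and 3.00 reads in clones 1, 2 and 3, which is 1.00, 0.982 and 1.05 times that of the peaks on the rest of Chr15. Against the other autosomes the ratio was 1.35, 1.33 and 1.5 in the window and 1.35, 1.35 and 1.43 on the rest of Chr15. Clones 1 and 2 are not independent in these values because their controls share reads. Fold enrichments divide by this background, and read numbers at peaks of Chr15 and of other chromosomes were not adjusted for it. The paper reports that the cell lines used for ChIP-seq had gained FVB/N copies of Chr15, on which Myc, Pvt1 and the window lie. What part this gain has in the control background, the read numbers and the peak density compared with the genome was not tested.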

How the data were processed

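H3K27-Ac and IgG ChIP-seq of 3 Cdkn2ab-/- tumour cell clones was used as the authors deposited it, as 1 narrowPeak list per clone. According to the submitters' notes and methods, single-end reads were mapped to GRCm38 with Bowtie2 and peaks were called with MACS2 2.1.1. The pairing of controls with clones and the caller's settings are not given in the sources used here. The deposited values are the fold enrichment, a ratio of reads to control background with 1 added to both, and the −log10 p-value and q-value at the summit; the lowest −log10 q was 1.30, 1.33 and 1.35. Totals of mapped reads are unknown.

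Peaks off the assembled autosomes, X and Y (5, 21 and 3) were left out. Reads and background at each summit were recovered from the ratio and the p-value together; on simulated peaks made with known reads all were recovered. Starts were all transcript starts of GENCODE M21, regions were merged on an overlap of at least 1 bp, and domains joined peaks up to 12500 bp apart. Coordinates count from 1. Percentiles are the percentage of lower values in the same clone. Percentiles among promoter peaks rank the strongest promoter peak of a gene against every promoter peak of protein-coding genes. Weaker further peaks of a gene are among these, which raises the percentiles. Promoter sequences came from RefSeq (GRCm38.p6) and summit sequences from GRCm38, with pysam 0.24.0; other steps used Python 3.11.15, pandas 2.3.3 and scipy 1.17.1. The lists of genes, the motifs and the alternatives (stricter q, equal list lengths, other distances, overlaps and joins, and each clone left out) were set in writing, and the members and lists were chosen with earlier results of these data known. Named were all members, every listed gene without a promoter peak in some clone and up to 4 others per list, all protein-coding genes of the window, the 10 shared regions of highest mean percentile, and the largest domains and strongest single-clone peaks. The allele counts of the study were not analysed here. Read numbers carry counting error, and reads without molecular identifiers are not independent molecules.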

Additional observations from a re-analysis of the deposited data

How the results depend on the processing

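For 11 values, 75 alternatives were computed and 70 moved the value by less than 1 SD over the clones (counts and shares: by no more than 1.5 times). Leaving out 1 of 3 clones cannot move a mean over clones by 1 SD, so such alternatives could not count as moved. Weighting by fold enrichment took the mean rank of the domain at Myc from 763 to 352, which counted as kept because the SD was 640. The number kept is therefore no measure of how firm the values are. The number of window regions shared by all 3 clones fell from 18 to 10 when the summits had to lie within 250 bp and to 8 with a reciprocal overlap of 50%, and ranged from 18 to 35 when a clone was left out, with 35 without clone 2. The ratio of the window's control background to the rest of Chr15 was 1.01, but 1.39 against the other autosomes, and 1.02 with clones 1 and 2 counted once, which was added after the data had been seen. The share of regions of clones 1 and 3 outside Myc and Pvt1 that clone 2 also had, likewise added later, went from 38.1% to 23.8% with lists of equal length and to 28.6% with a −log10 q of at least 5. With equal lengths (29182 peaks each) the window held 63, 34 and 60 peaks, and 9 in place of 10 members had a promoter peak in clone 2. With a peak required to cover the start base, 7 in place of 8 members had one in all clones. The cause was not tested. No paired analysis was possible because the IgG controls have no list of their own and no result comes from a test.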
